A study of Mus musculus with 12 samples.

Results

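Meis1 and Meis2 are described here by the called peaks of 7 chromatin profiles of mouse forelimb buds. Members were the peaks that overlap a window of mm9 around each gene, 18500000 to 19200000 on chromosome 11 for Meis1 and 115300000 to 116300000 on chromosome 2 for Meis2. The windows held 271 of the 189536 peaks of the 7 lists, 138 at Meis1 and 133 at Meis2. The profiles were made by chromatin immunoprecipitation and sequencing (ChIP-seq), with 1 library each, so no difference between groups has a replicate check and no p-value is given. The acetyl mark H3K27ac, found at enhancers and promoters in use, and the methyl mark H3K27me3, deposited by Polycomb proteins at silenced genes, were profiled at E11.5 in Hoxa13-/-;Hoxd13-/- embryos, called double mutant below, and in wild-type embryos. HOXA13 and HOXD13 were profiled in wild type at E11.5 with antibodies made in-house, and H3K27me3 also in CD1 forelimb buds at E10.5. HOXA13 chromatin was cross-linked with disuccinimidyl glutarate beside formaldehyde. The E11.5 samples were the dissected distal part of forelimb buds of a mixed C57BL/6 and CD1 background. The mutant Hoxa13 allele is interrupted by a neomycin cassette within the coding region, and the mutant Hoxd13 allele by lacZ in the first exon. The labels do not say how many embryos were pooled.

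Meis1 and Meis2 encode homeodomain transcription factors of the TALE class, which bind DNA together with PBX and HOX proteins. In the early limb bud both are expressed throughout, and later their expression is kept in the proximal part, which forms the upper arm, under the influence of retinoic acid, while the distal part that forms the digits lacks it. HOXA13 and HOXD13 are the HOX proteins of that distal part. None of the 7 profiles measures expression, so the name "proximal limb genes" was not tested on these data.

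Gene models of mm9 were not used here, so no peak below is assigned to a promoter, an exon or an intron. In the RefSeq annotation of GRCm38.p6, Meis1 lies between the protein-coding genes Etaa1 and Spred2, and Meis2 between BC052040 and Tmco5. A peak in a window may therefore belong to another transcript. The promoters of both genes are shown to identify them, from 250 bases before to 50 after the start of transcription, as RefSeq gives them on GRCm38.p6. That of Meis1 is chr11:19018920-19019219 and that of Meis2 chr2:116064570-116064869, both on the minus strand, and these positions must not be laid over the mm9 positions of the peaks. Capitals mark CpG dinucleotides, which are dense at many promoters that Polycomb complexes occupy.
Meis1: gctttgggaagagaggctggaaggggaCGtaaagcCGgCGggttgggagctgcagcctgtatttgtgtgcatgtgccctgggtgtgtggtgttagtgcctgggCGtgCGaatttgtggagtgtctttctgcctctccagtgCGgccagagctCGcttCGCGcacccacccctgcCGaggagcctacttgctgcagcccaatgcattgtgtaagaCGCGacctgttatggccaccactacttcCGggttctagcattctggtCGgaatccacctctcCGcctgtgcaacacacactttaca
Meis2: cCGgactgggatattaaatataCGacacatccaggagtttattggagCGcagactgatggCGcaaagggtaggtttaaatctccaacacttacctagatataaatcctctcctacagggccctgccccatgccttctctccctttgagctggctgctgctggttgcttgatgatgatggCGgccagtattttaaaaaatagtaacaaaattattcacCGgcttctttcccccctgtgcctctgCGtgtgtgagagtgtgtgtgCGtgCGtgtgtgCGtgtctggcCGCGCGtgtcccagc
The Meis1 promoter holds 15 CpG and the Meis2 promoter 13, against a median of 7 over 32851 promoters of the same length. As many CpG or more were in 34.6% of promoters for the Meis1 count and in 37.9% for the Meis2 count. On either strand, the letters TCGTAAA, part of a HOX13 motif, were in neither promoter and in 0.597% of all promoters. The letters CAATAAA, another form, occurred once in the Meis2 promoter, not in that of Meis1, and in 4.60% of all. The MEIS motif TGACAG was in neither and in 19.2% of all.

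HOXA13 and HOXD13 both had many peaks in each window, at a density well above that of the autosomes. HOXA13 had 22 peaks at Meis1, which is 31.4 per Mb, and 28 at Meis2, or 28 per Mb, against 12.4 per Mb over all autosomes. HOXD13 had 20 peaks at Meis1 and 25 at Meis2, or 28.6 and 25 per Mb, against 9.05 per Mb. A HOXD13 peak was present at 17 of 22 HOXA13 peaks at Meis1, 77.3% (exact 95% interval 54.6 to 92.2%), and at 21 of 28 at Meis2, 75.0% (55.1 to 89.3%), against 63.9% of all HOXA13 peaks. In the opposite direction, 17 of 20 HOXD13 peaks at Meis1 and 21 of 25 at Meis2 overlapped HOXA13, against 86.9% of the whole list. These intervals cover the counting of peaks only, as do all intervals below. Peaks of both factors were merged into 25 sites at Meis1 and 32 at Meis2. At Meis1 17 sites carried both factors, 5 HOXA13 alone and 3 HOXD13 alone, and at Meis2 the counts were 21, 7 and 4. Of all 33743 sites, 58% carried both factors, 33.2% HOXA13 alone and 8.8% HOXD13 alone.

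**Figure D1:**
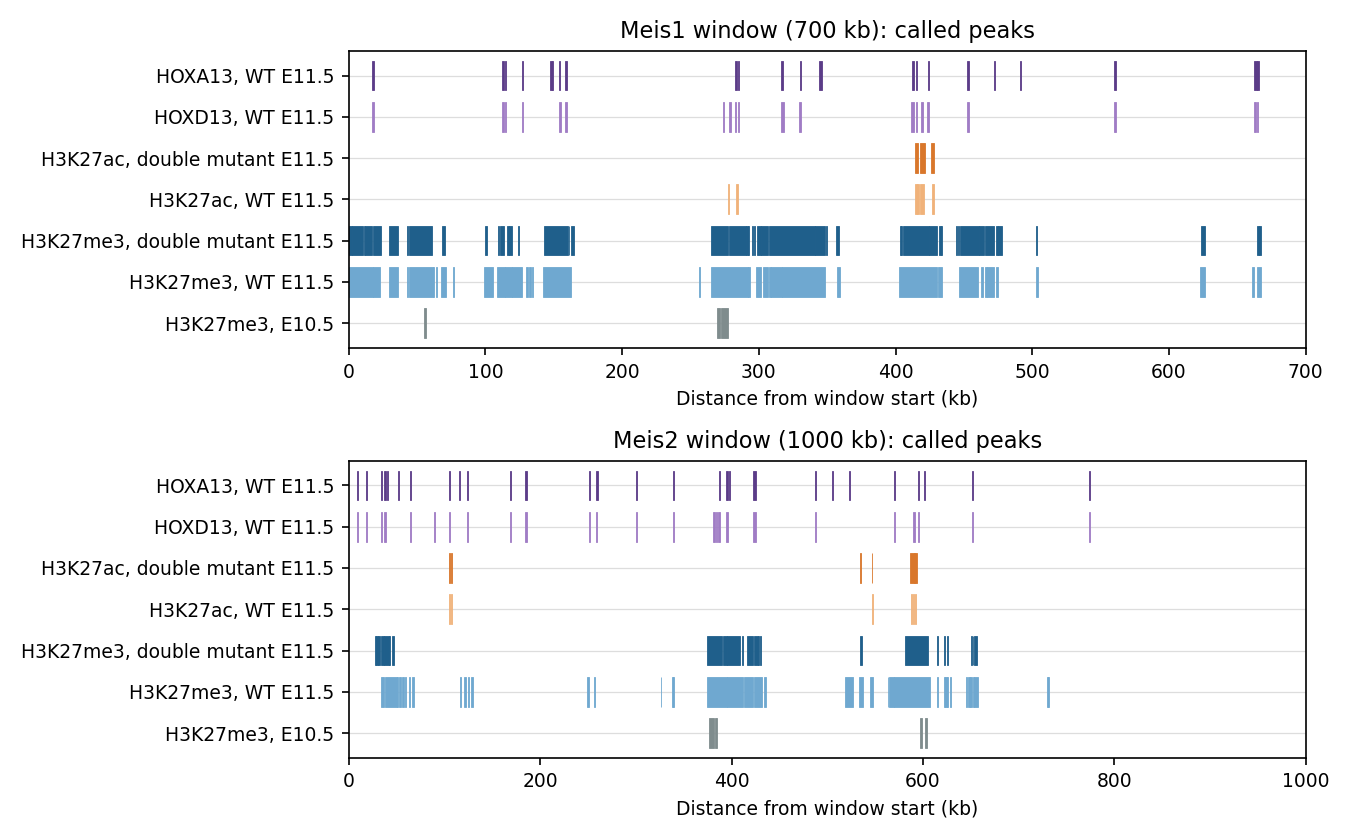
Called peaks of the 7 lists in the Meis1 window (upper panel) and the Meis2 window (lower panel), by distance from the window start in kb; each block is 1 peak, drawn to scale. H3K27me3 at E11.5 lies in many separate stretches, H3K27ac in a few places, and E10.5 H3K27me3 has 3 peaks at Meis1 and 4 at Meis2.

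Each window had a few strong sites among many weak ones. The score of a peak, as the authors deposited it, is read as a rescaled -log10 of the peak caller's p-value, and it ranks peaks within 1 list only. The median HOXA13 score was 140 at Meis1 and 136 at Meis2, close to the 126 of the whole list. For HOXD13 the medians were 113 and 122, against 133. Above the 90th percentile of the whole HOXA13 list were 3 of 25 sites at Meis1 and 4 of 32 at Meis2. For HOXD13 the counts were 2 and 3, so the mix of strong and weak sites was much like that of the whole lists. The site with the highest HOXA13 score at Meis1 ran from 18815845 to 18818296 on chromosome 11, with a HOXA13 score of 1282 and a HOXD13 score of 1782. It was followed by sites from 18516825 to 18518371 (HOXA13 1080, HOXD13 1106), 18612122 to 18613476 (HOXA13 740, HOXD13 434), 18614001 to 18615398 (HOXA13 581, HOXD13 315) and 19162297 to 19164435 (HOXA13 464, HOXD13 287). At Meis2 the highest ran from 115722476 to 115725331 on chromosome 2, with a HOXA13 score of 2405 and a HOXD13 score of 1904. Its HOXA13 peak was at the 99.4th percentile of the whole HOXA13 list. The next sites ran from 115694332 to 115695950 (HOXA13 1359, HOXD13 1119), 115336566 to 115339292 (HOXA13 732, HOXD13 726), 115950955 to 115952265 (HOXA13 692, HOXD13 488) and 115558484 to 115560104 (HOXA13 491, HOXD13 401). All 10 of these sites carried both factors, but a ranking by HOXA13 score leaves out sites of HOXD13 alone. Some sites of both factors had HOXD13 scores as low as 57.4 at Meis1 and 50.7 at Meis2. Sites of HOXD13 alone had lower HOXD13 scores than the 10 ranked sites. The 3 at Meis1, from 18778008, 18918513 and 18773480, scored 94.7, 94.2 and 67.4, and the 3 highest of 4 at Meis2, from 115889270, 115680960 and 115683870, scored 140, 124 and 95.7.

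**Figure D2:**
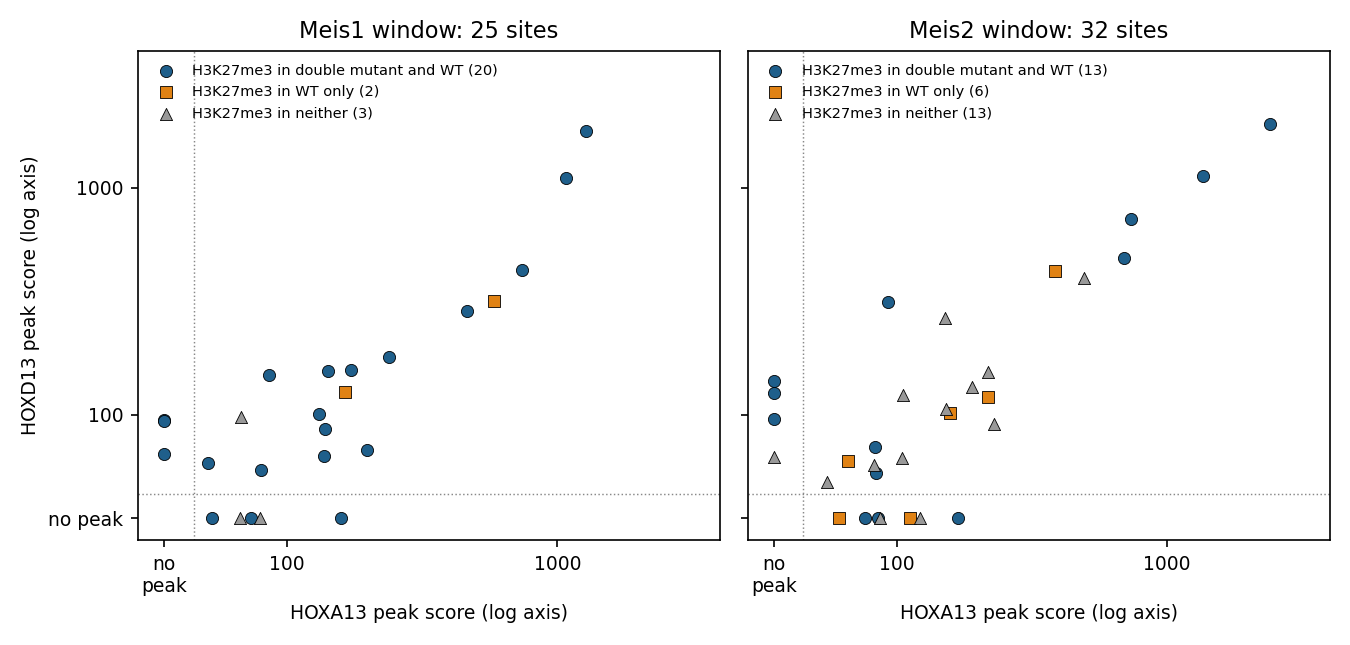
HOXA13 score (x axis, log scale) against HOXD13 score (y axis, log scale) of the 25 merged sites at Meis1 and the 32 at Meis2; sites of 1 factor are drawn beyond the dotted line, at "no peak" of the other. Circles, squares and triangles mark H3K27me3 in double mutant and wild type, in wild type only and in neither. The 4 sites with the highest HOXA13 scores at Meis2 are circles, as are the 3 highest at Meis1. The next site by HOXA13 score is a triangle at Meis2 and a square at Meis1.

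H3K27ac covered a smaller share of both windows than of the autosomes. At Meis1 there were 3 double-mutant peaks covering 7.64 kb and 6 wild-type peaks covering 8.71 kb. At Meis2 there were 7 double-mutant peaks covering 11.3 kb and 6 wild-type peaks covering 8.45 kb. Expressed as a share of the window, H3K27ac covered 1.09% of Meis1 and 1.13% of Meis2 in the double mutant, against 2.96% of the autosomes. In wild type it covered 1.24% of Meis1 and 0.845% of Meis2, against 2.37%. The median autosomal stretch of 1 Mb was nearer, with 16.9 kb in the double mutant and 15.9 kb in wild type. Per Mb, Meis1 had 10.9 kb in the double mutant and 12.4 kb in wild type, and Meis2 11.3 and 8.45 kb. The covered length was thus 1.07 kb less in the double mutant than in wild type at Meis1 (double mutant minus wild type, -1.07 kb) and 2.85 kb more at Meis2, with a double-mutant to wild-type ratio of 0.878 at Meis1, 1.34 at Meis2 and 1.25 over the autosomes. With only scores of 100 or more kept, the difference was -0.508 kb at Meis1 and 0.095 kb at Meis2. The double-mutant H3K27ac list is the longer one, with 38115 peaks against 31933, and read depth is unknown.

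At Meis1 the main H3K27ac lay in 1 cluster. The double-mutant peaks ran from 18914226 to 18916756 (score 278), from 18917870 to 18921247 (score 1941) and from 18926234 to 18927968 (score 420). The wild-type peaks that they overlap ran from 18914174 to 18915348 (score 182), from 18915496 to 18917195 (score 146), from 18917658 to 18920803 (score 3194) and from 18926619 to 18927793 (score 134). The strongest of these lay in the top range of scores, where 4439 wild-type peaks share the value 3100 and ranks are not informative. It overlapped a peak of HOXD13 alone. The other 2 wild-type peaks were lost, meaning that no double-mutant peak overlapped them. They ran from 18777719 to 18778277 (score 64.7) and from 18783465 to 18784420 (score 102) nearer the window start than the cluster, and both were weak for their list, at percentiles 7.86 and 21.3. Each overlapped a HOX13 site, the first of HOXD13 alone and the second a merged site of both factors. Within that merged site, the lost peak met the HOXA13 peak only, as the HOXD13 peak ended at 18783441. Lost peaks were therefore 2 of 6 at Meis1 (33.3%, 4.33 to 77.7%), against 15.1% of the whole wild-type list, and the interval holds that share. None of the 3 double-mutant peaks was gained, against 30.1% of the whole double-mutant list.

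At Meis2 all 6 wild-type H3K27ac peaks were still called in the double mutant, which allows a lost share of up to 45.9% by the exact interval. The 15.1% lost over the whole wild-type list is within that interval. Of the 7 double-mutant peaks 2 were gained (28.6%, 3.67 to 71.0%), close to the 30.1% of the whole double-mutant list. They ran from 115834579 to 115835568 (score 85.4) and from 115890882 to 115891644 (score 79.5). Both were weak, at percentiles 19.8 and 17.2 of their list, and the second lay between wild-type peaks. With only scores of 100 or more kept, Meis2 had 1 lost and 0 gained peaks, in place of 0 lost and 2 gained. The strongest peaks ran from 115406386 to 115408227 in the double mutant (score 1021) and from 115406512 to 115408215 in wild type (score 1053), with no HOX13 site on them and no H3K27me3. Beside them, a peak from 115404655 to 115405745 in the double mutant and from 115404597 to 115406047 in wild type overlapped both factors. A cluster within H3K27me3 held the widest double-mutant peak, from 115886444 to 115890427 (3984 bp, score 862), where wild type had peaks from 115887108 to 115889032 (score 253) and from 115889273 to 115890395 (score 130). Next to it, peaks ran from 115891720 to 115893347 in the double mutant and from 115891681 to 115892903 in wild type. H3K27ac peaks overlapped called H3K27me3 of the same genotype in 3 of 3 double-mutant and 6 of 6 wild-type peaks at Meis1. At Meis2 they did so in 4 of 7 double-mutant and 4 of 6 wild-type peaks, against 13.2% and 15.5% of the whole lists. By base, 100% of the H3K27ac length at Meis1 was inside H3K27me3 in either genotype. At Meis2 the share was 65.2% in the double mutant and 62.7% in wild type, against 8.86% and 9.82% over the autosomes. A HOX13 site lay on 2 of 3 double-mutant H3K27ac peaks at Meis1 and 3 of 7 at Meis2, against 29.1% of the whole list. In wild type it lay on 5 of 6 and 2 of 6, against 37.8%. The profiles came from dissected tissue, in which both marks on the same chromosomes and marks in different cells cannot be told apart. Nor can fewer cells with a mark be told apart from less of it per cell.

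H3K27me3 at E11.5 covered a smaller share of the Meis2 window than of the Meis1 window, in either genotype. At Meis1 the double mutant had 47 peaks covering 225 kb and wild type 37 peaks covering 246 kb of the 700 kb window. At Meis2 the double mutant had 23 peaks covering 97.8 kb and wild type 40 peaks covering 174 kb of 1000 kb. In double mutant and wild type this was 32.1% and 35.1% of the Meis1 window and 9.78% and 17.4% of the Meis2 window, against 2.43% and 3.01% of the autosomes. The covered length in the double mutant was 0.915 of that in wild type at Meis1, 0.562 at Meis2 and 0.807 over all autosomes. For 160 autosomal tiles of 1 Mb with at least 100 kb of wild-type H3K27me3, the median ratio was 0.844, and the 10th and 90th percentiles were 0.672 and 0.991. Meis1 lay within that range and Meis2 below it. The difference between the genes was not tested, since each ratio rests on 2 libraries.

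**Figure D3:**
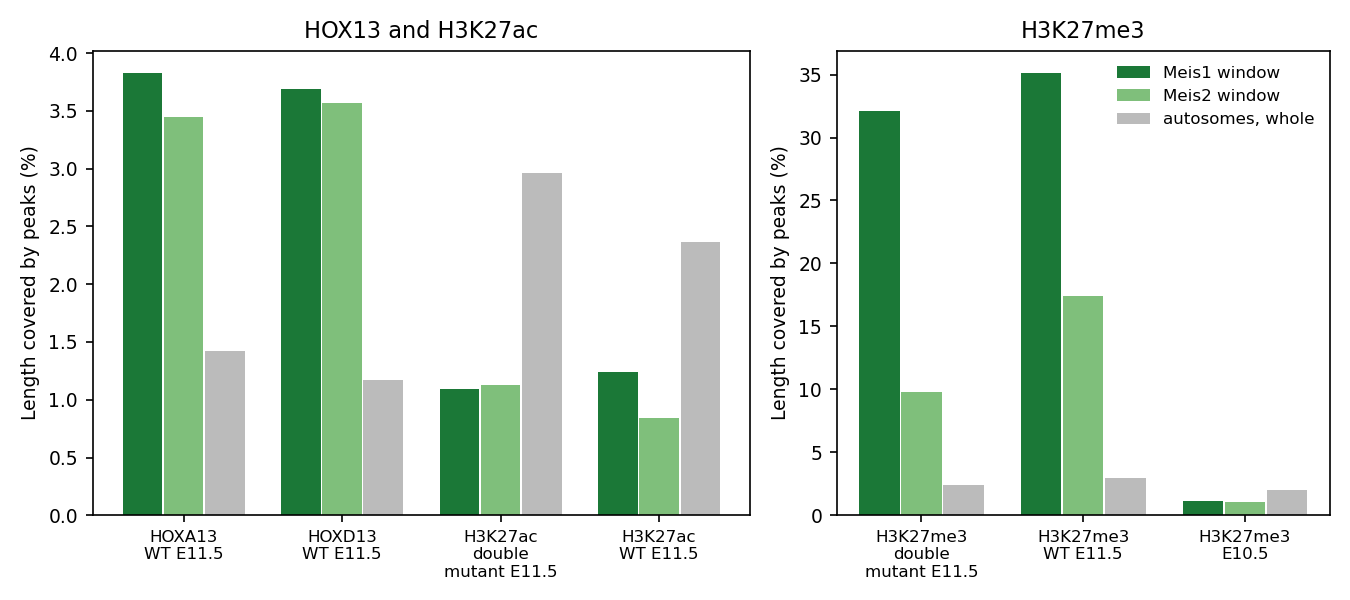
Length covered by the peaks of each list, in percent of the Meis1 window, of the Meis2 window and of the autosomes; the left panel holds HOXA13, HOXD13 and H3K27ac, the right panel H3K27me3 on its own scale. H3K27me3 covered 32.1% of Meis1 and 9.78% of Meis2 in the double mutant, against 35.1% and 17.4% in wild type.

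Peak by peak, a larger share of wild-type H3K27me3 peaks was absent from the double mutant at Meis2 than at Meis1. No wild-type counterpart was found for 7 of 47 double-mutant peaks at Meis1 (14.9%, 6.20 to 28.3%) and for 3 of 23 at Meis2 (13.0%, 2.78 to 33.6%), against 15.8% on all autosomes. Of wild-type peaks, 8 of 37 at Meis1 (21.6%, 9.83 to 38.2%) and 26 of 40 at Meis2 (65.0%, 48.3 to 79.4%) had no double-mutant counterpart, against 30.4% on all autosomes. With the H3K27me3 lists reduced to equal length by score, these were 0 of 24 at Meis1 and 9 of 19 at Meis2. That cut took in peaks off the autosomes, where the lists differ. Only 19624 of 28875 wild-type peaks were autosomal, but 18973 of 19358 double-mutant ones. Autosomal lists of equal length, a setting added after seeing the data, gave 4 of 29 and 15 of 25. With only scores of 100 or more kept, the counts were 5 of 31 and 15 of 25. No autosomal shares were computed for these shortened lists. By base, double-mutant H3K27me3 covered 85.5% of the wild-type length at Meis1 and 53.0% at Meis2, against 73.7% over the autosomes. It added 14.5 kb outside wild-type peaks at Meis1 and 5.67 kb at Meis2. Wild-type peaks held 93.5% of the double-mutant length at Meis1, 94.2% at Meis2 and 91.3% over the autosomes. The wild-type peaks at Meis2 had a median score of 144, below the 235 of their whole list, and those at Meis1 a median of 469. The part of peak strength in the number absent was not tested.

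The widest H3K27me3 peaks were called in both genotypes. At Meis1 the widest double-mutant peak ran from 18807597 to 18840740 (33144 bp) and the widest wild-type peak from 18817153 to 18848321 (31169 bp), within the same stretch. The next in the double mutant were 18905448 to 18924604, 18643014 to 18660407, 18543878 to 18561154 and 18946751 to 18961303. In wild type they were 18902496 to 18930403, 18764990 to 18791753, 18641852 to 18662569 and 18499666 to 18517577, the last of which reaches out of the window. Each of these overlapped H3K27me3 of the other genotype. At Meis2 the widest was 115880939 to 115905249 in the double mutant (24311 bp) and 115869980 to 115906875 in wild type (36896 bp). The double-mutant peak lay within the wild-type one. Next came 115674606 to 115690501, 115695336 to 115709013, 115715983 to 115722187 and 115337114 to 115341889 in the double mutant, and 115674141 to 115694905, 115695333 to 115712021, 115337567 to 115350107 and 115712592 to 115722723 in wild type.

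Along the Meis2 window, H3K27me3 was shorter in the double mutant in every 100 kb bin that held it. The gap was widest from 500 to 600 kb after the window start, with 21.4 kb in the double mutant and 52.1 kb in wild type. From 100 to 300 kb the double mutant had no H3K27me3 peak and wild type 6.00 kb and 2.54 kb per bin. In proportion, the genotypes were closest in the bin from 300 to 400 kb, with 25.1 kb in the double mutant and 28.9 kb in wild type. At Meis1 the double mutant covered more than wild type from 300 to 400 kb (50.0 against 48.7 kb) and from 400 to 500 kb (59.6 against 53.7 kb). Its largest shortfall was from 100 to 200 kb, with 29.5 kb in the double mutant and 48.2 kb in wild type. Both windows also had empty stretches. No list had a peak from 18664466 to 18755999 at Meis1 (91.5 kb) or from 116074440 to the window end at Meis2 (226 kb).

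**Figure D4:**
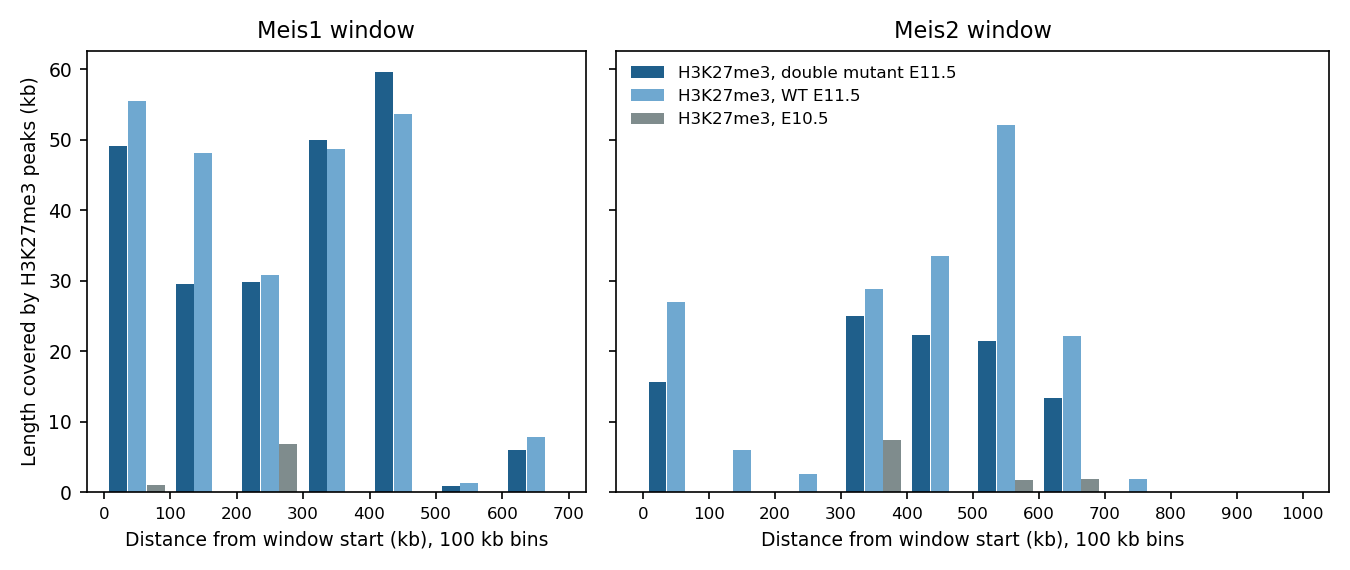
Length covered by H3K27me3 peaks (y axis, kb) in 100 kb bins along the Meis1 window (left) and the Meis2 window (right), for the double mutant, wild type and E10.5. In the Meis2 bin from 500 to 600 kb the double mutant had 21.4 kb and wild type 52.1 kb; in the Meis1 bin from 400 to 500 kb they had 59.6 and 53.7 kb.

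E11.5 and E10.5 H3K27me3 were further apart at these genes than over the autosomes. At Meis1, wild-type E11.5 H3K27me3 covered 246 kb and E10.5 H3K27me3 7.87 kb in 3 peaks. At Meis2 the lengths were 174 kb at E11.5 and 10.9 kb at E10.5, in 4 peaks. The E11.5 to E10.5 ratio was 31.3 at Meis1 and 15.9 at Meis2, against 1.48 over the autosomes. Of wild-type E11.5 peaks 35 of 37 at Meis1 and 38 of 40 at Meis2 had no E10.5 peak, against 50.2% on all autosomes. In the double mutant the counts were 45 of 47 at Meis1 and 21 of 23 at Meis2, against 46.5%. In the opposite direction, 0 of 3 E10.5 peaks at Meis1 and 0 of 4 at Meis2 had no wild-type E11.5 peak, against 13.6% on all autosomes. Every base of the 7 E10.5 peaks was within H3K27me3 of both E11.5 genotypes. Over the autosomes, 77.4% of the E10.5 length lay in double-mutant and 85.3% in wild-type E11.5 H3K27me3. The strongest E10.5 peaks, from 18772320 to 18777253 at Meis1 (score 501) and from 115676171 to 115681715 at Meis2 (score 812), each lay in one of the 5 widest wild-type E11.5 peaks of its window. The others at Meis1 ran from 18769496 to 18771347 and from 18555316 to 18556396, and at Meis2 from 115682857 to 115684744, from 115897193 to 115898873 and from 115902238 to 115904071. The E10.5 library also differs in strain and in the supplier of the antibody, and its buds were not labelled as distal, so stage cannot be told apart from these.

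In wild type, 18 of 25 HOX13 sites at Meis1 and 18 of 32 at Meis2 lay on H3K27me3 and not on H3K27ac, against 6.81% of all sites. At Meis1 20 of 25 sites overlapped double-mutant H3K27me3 (80.0%, 59.3 to 93.2%) and 22 of 25 wild-type H3K27me3 (88%, 68.8 to 97.5%). At Meis2 the counts were 13 of 32 in the double mutant (40.6%, 23.7 to 59.4%) and 19 of 32 in wild type (59.4%, 40.6 to 76.3%). Over all sites the shares were 8.57% in the double mutant and 11.2% in wild type. The genotypes were closer under some other rules and further apart under others. When 50% of either peak had to overlap, the shares were 72% in double mutant and 72% in wild type at Meis1, and 37.5% and 43.75% at Meis2. With lists of equal length, they were 81.8% in the double mutant and 90.9% in wild type for 22 sites at Meis1. For 30 sites at Meis2 they were 40% and 43.3%, in the same order. Equal autosomal lengths gave 80% and 88% at Meis1, and 40.6% and 53.1% at Meis2. Counting peaks within 1000 bp as overlapping gave 88% and 92% at Meis1, and 40.6% and 65.6% at Meis2. Scores of 100 or more gave 86.7% and 100% at Meis1, and 38.1% and 47.6% at Meis2. The windows themselves were richer in H3K27me3 than the autosomes, as given above. H3K27ac was present at 2 of 25 sites at Meis1 and 2 of 32 at Meis2 in the double mutant, against 34.3% of all sites. In wild type it was present at 4 of 25 and 2 of 32, against 37.6%. Both marks lay on 2 sites at Meis1 and 1 at Meis2 in the double mutant, against 3.46% of all sites, and on 4 and 1 in wild type, against 4.34%. E10.5 H3K27me3 was at 1 site of Meis1 and 2 of Meis2, all of HOXD13 alone, against 6.58%. Counted by peak, a HOX13 site lay on 11 of 47 double-mutant H3K27me3 peaks at Meis1 and 9 of 23 at Meis2, against 13.8% on all autosomes. In wild type it lay on 12 of 37 and 16 of 40, against 16.4%, and at E10.5 on 1 of 3 and 2 of 4, against 14%.

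Sites with H3K27me3 in wild type only numbered 2 at Meis1 and 6 at Meis2, against 3.32% of all sites. The double mutant alone had it at 0 of 25 sites at Meis1 and 0 of 32 at Meis2, against 0.738%. The wild-type-only sites at Meis1 were the strong site from 18614001 to 18615398 and a weaker one from 18626510 to 18627579 (HOXA13 163). The 5 with the highest HOXA13 scores at Meis2 were 115869317 to 115870718 (HOXA13 386), 115363970 to 115365155 (216), 115423384 to 115424625 (157), 115415125 to 115416533 (112) and 115638673 to 115639834 (66.2). Some of these calls rest on peak edges. A double-mutant peak ended at 18613852, just before the strong Meis1 site. Wild-type H3K27me3 ended at 18626595 on the weaker one, and began at 115416458 on the Meis2 site from 115415125. H3K27ac in wild type only was seen at 2 sites of Meis1, 18782238 to 18784102 and 18778008 to 18779386, which are those of the lost peaks, and at 0 of Meis2, against 7.62% of all sites. Neither mark was called at 5 of 25 sites at Meis1 and 18 of 32 at Meis2 in the double mutant, and at 3 of 25 and 12 of 32 in wild type. Over all sites these shares were 60.6% in the double mutant and 55.6% in wild type.

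Several of the strongest HOX13 sites coincided with narrow breaks in H3K27me3. This was looked at after the positions were seen. A break is a gap under 1000 bp between neighbouring H3K27me3 peaks of 1 list. In the double mutant 2 of 26 gaps at Meis1 (7.69%, 0.946 to 25.1%) and 4 of 11 at Meis2 (36.4%, 10.9 to 69.2%) met a HOX13 site, against 8.04% on all autosomes. In wild type 3 of 13 gaps at Meis1 (23.1%, 5.04 to 53.8%) and 6 of 16 at Meis2 (37.5%, 15.2 to 64.6%) did so, against 11.4%. HOX13 sites are also denser in both windows than over the autosomes, and the part of this in the shares was not tested. At the strongest Meis2 site, from 115722476 to 115725331, the gap was 988 bp in the double mutant and 535 bp in wild type. At the next, from 115694332 to 115695950, it was 105 bp in the double mutant and 427 bp in wild type. For the Meis2 site from 115336566 to 115339292 it was 394 bp in the double mutant and 562 bp in wild type. For that from 115950955 to 115952265 it was 642 bp in the double mutant and 709 bp in wild type. At the strongest Meis1 site, from 18815845 to 18818296, wild type had a gap of 135 bp, which 1 double-mutant peak spanned. At the Meis1 site from 18516825 to 18518371 the gap was 559 bp in the double mutant and 53 bp in wild type. A single peak of the other genotype spanned 14 of 26 double-mutant gaps at Meis1 and 4 of 11 at Meis2, against 56.4% on all autosomes, and 3 of 13 wild-type gaps at Meis1 and 0 of 16 at Meis2, against 15.9%. Of the gaps that met a HOX13 site, these were 1 of 2 and 0 of 4 in the double mutant, against 39.3%, and 1 of 3 and 0 of 6 in wild type, against 11.7%. Gap widths thus went in different directions between the genotypes from site to site.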

How the data were processed

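Of 12 samples, 7 immunoprecipitated libraries have a deposited peak list with chromosome, start, end, name and score, and 5 inputs have none. The submitters' processing notes name Bowtie 0.12.7, MACS 1.4 and the build mm9, and each list was called for 1 library against an input, per the file names. The deposited score has a floor of 50, a p-value of 1e-05 as read here, and 3100 is shared by 54 to 4549 peaks of a list. Read depth is unknown. On chromosome 1, 6 to 16 peaks of a list lie beyond the GRCm38 end, so GRCm38 genes and sequence were not laid over peaks.

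Groups came from the sample titles, with 1 library each. Peaks were counted where they overlap a window, and covered length was cut at its edges. Overlap meant 1 bp or more, and HOXA13 and HOXD13 peaks that overlap were merged into sites. Autosomes served as background for covered length, peak density, H3K27me3 peaks and gaps. The reason is that 19624 of 28875 wild-type H3K27me3 peaks, but 18973 of 19358 double-mutant ones, lie on them. Shares of HOX13 sites and of HOXA13, HOXD13 and H3K27ac peaks were taken over all chromosomes, also where they concern overlap with H3K27me3. Autosomal values divide by 2471 Mb, the sum of the last peak ends. Intervals are exact (Clopper-Pearson, 95%) and cover counting only. The overlap steps were checked on simulated lists. Python 3.11.15, pandas 2.3.3 and scipy 1.17.1 were used. Named peaks were the 5 sites with the highest HOXA13 score, the 3 highest of HOXD13 alone, lost and gained H3K27ac peaks, the 3 widest and 3 highest H3K27ac peaks, the 5 widest H3K27me3 peaks per list, and up to 5 sites with a mark in 1 genotype only. The genes, windows and rules were chosen with earlier results of these data known. Sequences under peaks, and peaks at related genes, were not analysed here, since both need mm9.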

Additional observations from a re-analysis of the deposited data

How the results depend on the processing

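Of 308 values recomputed under 8 alternatives, 155 were identical to those reported, many by construction: overlap rules cannot change peak counts or covered lengths, and counting peaks by midpoint changed 0 of 44 values. Of the main values 23, and of the others 19, moved by over 1.5 times or out of their interval. The H3K27ac length difference between genotypes kept its sign at both genes. Peak counts did not always keep their order. Joining neighbours within 1000 bp gave Meis1 21 double-mutant and 24 wild-type H3K27me3 peaks, in place of 47 and 37. Scores of 100 or more left Meis2 4 double-mutant and 6 wild-type H3K27ac peaks, in place of 7 and 6. The double-mutant to wild-type ratio of H3K27me3 length ran from 0.895 to 0.959 at Meis1 and from 0.562 to 0.636 at Meis2. Keeping only scores of 100 or more, HOXA13 had 14 peaks at Meis1 and 18 at Meis2, HOXD13 11 and 16, and wild-type H3K27me3 lay at 100% of Meis1 sites. Lost H3K27ac peaks were then 1 at Meis1 and 1 at Meis2, gained peaks at Meis2 were 0, and the H3K27ac length in the double mutant minus wild type was -0.51 kb at Meis1 and 0.095 kb at Meis2. It was -1.68 kb at Meis1 with neighbouring peaks joined. Gained peaks at Meis2 were 1 when peaks within 1000 bp counted as overlapping and 1 when neighbours were joined. Wild-type H3K27me3 peaks absent from the double mutant, at Meis1 and Meis2, were 5 and 15 with a score of 100 or more, 0 and 9 with equal list lengths, 5 and 17 with neighbours joined, and 4 and 15 with equal autosomal lengths, an alternative added after seeing the data. With the Meis2 window trimmed to the length of the Meis1 window, they were 16, and HOXA13 had 18 peaks there. Shorter lists and windows hold fewer peaks by construction. No paired analysis was possible because each group holds 1 library. Depth is unknown, so a peak absent from 1 list can stand for lower depth there.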
